A study of Mus musculus with 15 samples.

Results

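The cathepsins examined here are 8 genes for proteases of the lysosome, *Ctsb*, *Ctsc*, *Ctsd*, *Ctsh*, *Ctsk*, *Ctsl*, *Ctss* and *Ctsz*, measured in Mouse Embryonic Fibroblasts (MEFs) under 4 cytokine treatments. Their members are all probes whose RefSeq transcript belongs to one of these genes, which gave 8 of 23462 named genes and 13 of the 56605 probes. Of these, 6 probes, 1 for each of 6 genes, were bright enough to be tested (well above background on all 3 arrays of some group), among 29334 such probes. *Ctsc* and *Ctss* had no tested probe.

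The study asked how MEFs respond to a proinflammatory cytokine (TNFα) or to a profibrotic one (TGFß1), using 1-colour arrays of 60-base oligonucleotides. The 5 groups of 3 arrays were untreated controls and cultures stimulated by 10 ng/ml of TNFα, by 5 ng/ml of TGFß1, by 1 ng/ml of IL-1β, or by 20 ng/ml of IL-6 with 25 ng/ml of its soluble receptor, sIL-6Rα. The labels give culture times of 24 or 72 h without saying which applies to an array. The study places the control, TNFα and TGFß1 arrays at 24 h, and which time applies to the IL-1β and IL-6/sIL-6Rα arrays is not given in the sources used here. All groups were cultures of 1 established line, Balb/c/3T3 clone A31, in medium with serum and antibiotics, with no genetic change named, so the replicates vary by culture and not by animal, and a mixture of cell types in tissue is not represented. In RNA from whole cultures, fewer cells with a transcript and less transcript per cell cannot be told apart. Arrays are called by their group and the number that opens their label. A level is the log2 processed signal of a probe minus the 75th percentile of its array, so that 0 is a signal at this percentile, and levels of different probes are not set against each other.

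Cathepsins are made as inactive precursors, carried to the lysosome mainly by mannose 6-phosphate receptors, and activated by cleavage at acidic pH. Cathepsin D is an aspartic protease, whereas cathepsins B, C, H, K, L, S and Z are cysteine proteases, held in check by cystatins, stefins and related inhibitors. Fibroblasts use them to digest endocytosed matrix, and secreted forms can cleave collagen and other matrix proteins outside the cell.

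The 75th percentile of the signal lay between 508 and 683 across the arrays, 48.3% to 54.9% of probes were well above background, and 0 spots were saturated. The 5 listed target genes of TNFα and IL-1β all rose with each of these 2 cytokines, and 4 of 5 targets of TGFß1 rose with TGFß1. Of 3 listed targets of IL-6, *Socs3* and *Bcl3* rose with IL-6/sIL-6Rα, while *Stat3* differed by 0.55 and was not called. All 10 fibroblast markers were well above background on all 15 arrays. With TNFα 4 of them fell (*Col1a1*, *Col1a2*, *Col3a1* and *Thy1*), and with TGFß1 2 rose (*Fn1* and *Pdgfrb*) and 2 fell (*Pdgfra* and *S100a4*). Their summed level was 10.54 to 10.80 in controls, 10.09 to 10.37 with TNFα and 10.52 to 10.86 with TGFß1. A summed level is the log2 of the added unlogged levels of a list, with 1 probe for each gene. The brightest probes weigh most in it, so it does not measure the share of a cell type. The part of the fibroblast markers in the cathepsin results was not tested. Of 12 macrophage markers, 6 were tested, and 5 of these were above background on all 15 arrays. Of the 6, *Cd14* rose with TNFα (0.78, q = 0.0029), and with TGFß1 *Fcer1g* rose (1.43, q = 0.0038) and *Mpeg1* fell (-3.30, q = 0.026). The others, *Ptprc*, *Adgre1*, *Aif1*, *Lyz2*, *Tyrobp* and *Laptm5*, were above background on 0 of 15 arrays. The summed level of all 12 was 2.87 to 4.00 in controls, 3.08 to 4.04 with TNFα, 3.07 to 3.81 with TGFß1, 3.00 to 4.04 with IL-1β and 3.06 to 3.99 with IL-6/sIL-6Rα. The summed level of 4 epithelial markers was -4.59 to -3.03 in controls and -2.82 to -1.39 with TGFß1. Of these, *Krt8* was called, though it passed the filter on dim probes only through the TGFß1 arrays, and *Cdh1* was above background on 0 arrays. The part of this in the cathepsin results was not tested. Of 4 endothelial markers, 3 were above background nowhere.

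Among the cathepsins that were tested, *Ctsl* rose and *Ctsd* fell with TNFα, and *Ctsh* rose and *Ctsd* fell with TGFß1. A gene is said to be called, to rise or to fall where the limma q-value was below 0.05 and the absolute fold-change at least 1.5. With TNFα this was 2 of 6 genes, 1 in each direction, where 10.2% of all tested probes were called, 4.12% higher and 6.06% lower. With TGFß1 it was also 2 of 6 genes, 1 in each direction, where 18% of all probes were called, 7.17% higher and 10.8% lower. With IL-1β (0.252% of all probes called) and IL-6/sIL-6Rα (0.0648% called) it was 0 of 6, and limma's unadjusted p was below 0.05 for 1 gene in each, *Ctsl* in both. Over all 29334 tested probes this p was below 0.05 for 7815 with TNFα, 10749 with TGFß1, 1088 with IL-1β and 955 with IL-6/sIL-6Rα. The median log2 fold change of the 6 genes was 0.17 with TNFα and -0.15 with TGFß1, against 0.04 and 0.05 over all tested probes. The counts are small, and of the 4 calls only those of *Ctsd* held without each array in turn.

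**Figure D1:**
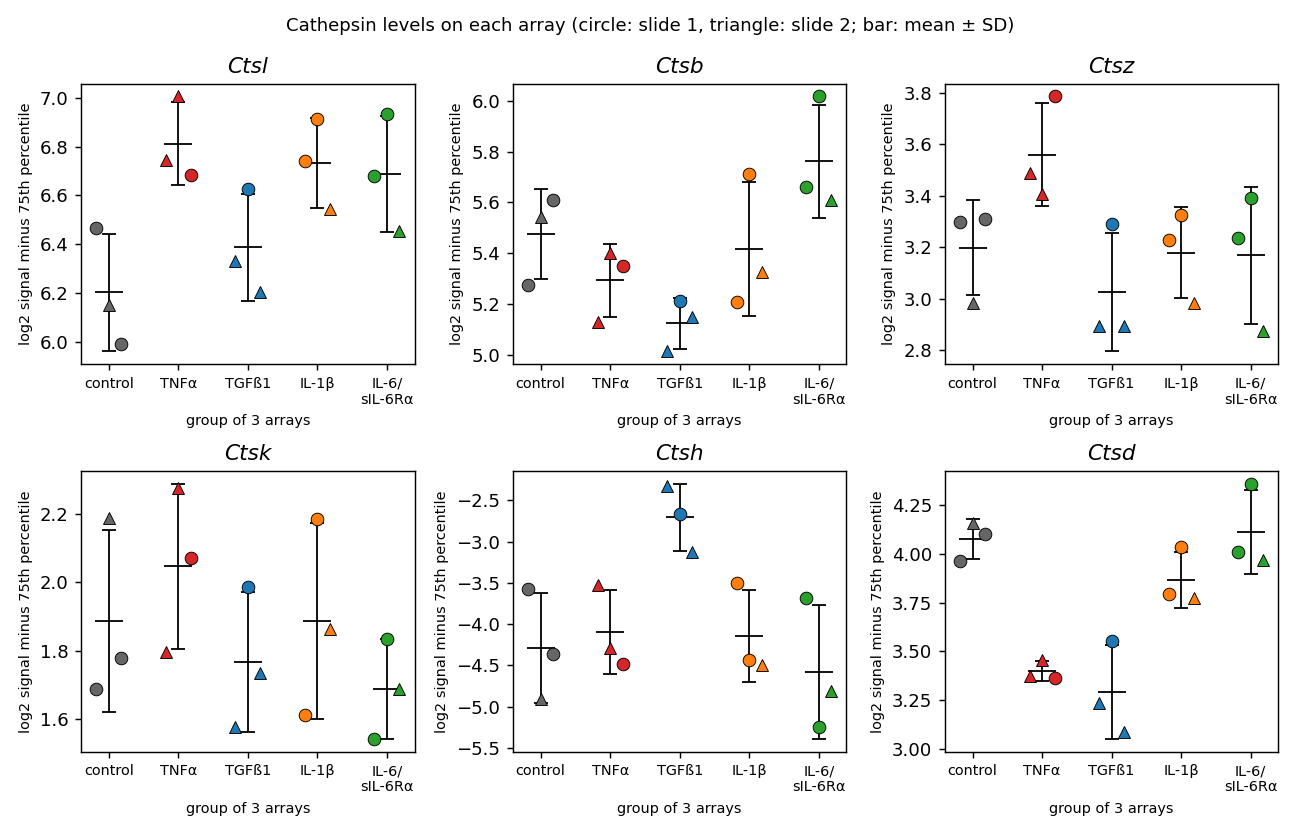
Level of the 6 tested cathepsins (log2 processed signal minus the 75th percentile of the array, each panel with its own axis) on each of 3 arrays of 5 groups, circles for slide 1 and triangles for slide 2, with mean ± SD. The TNFα and TGFß1 arrays of *Ctsd* lie at 3.09 to 3.55, below all controls at 3.96 to 4.16, and the TGFß1 arrays of *Ctsh* lie above all other arrays.

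*Ctsd*, the aspartic protease of the set and a major endopeptidase of the lysosome, was at 3.96, 4.16 and 4.10 on control arrays 1, 6 and 11. It was at 3.37, 3.46 and 3.36 on TNFα arrays 4, 9 and 14, and at 3.23, 3.55 and 3.09 on TGFß1 arrays 2, 7 and 12. All 6 of these treated arrays lay below all controls. The share of all tested probes whose groups separate in this way was not counted. For 3 arrays against 3, the smallest p of an exact permutation test is 0.1. Here and below, such separation is therefore a description and no separate support for a difference. On IL-1β arrays 5, 10 and 15 it was at 3.80, 4.03 and 3.77, and on IL-6/sIL-6Rα arrays 3, 8 and 13 at 4.01, 4.36 and 3.97, both overlapping the controls. The fall was 0.68 on the log2 scale with TNFα (SE 0.14, limma q = 0.0082, fold-change 1.60) and 0.78 with TGFß1 (SE 0.14, q = 0.0020, fold-change 1.72).

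Both falls of *Ctsd* were seen within each slide and within each run of 5 consecutive array numbers. With TNFα the differences from control were -0.67 within slide 1 and -0.74 within slide 2, and -0.59, -0.70 and -0.74 within the 3 runs. With TGFß1 they were -0.48 and -0.999 within the slides and -0.73, -0.60 and -1.02 within the runs. *Ctsd* was also lower than with IL-6/sIL-6Rα in both cases, by 0.71 with TNFα (q = 0.0065, 8.68% of all probes called) and by 0.82 with TGFß1 (q = 0.0016, 16.4% called). Its fall with TNFα was not distinguished from that with TGFß1 (difference 0.11, 95% interval -0.20 to 0.42, q = 0.73), and both treatments share the control arrays. With IL-1β the difference from control was -0.21 (95% interval -0.52 to 0.10), and with IL-6/sIL-6Rα it was 0.04 (-0.27 to 0.35).

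RefSeq (GRCm38.p6) lists promoter windows for 6 of the 8 genes, with none for *Ctsb* and *Ctsh*. Those of *Ctsd*, *Ctsk*, *Ctss* and *Ctsz* lie outside the span of the gene, whereas 61 of 250 bases for *Ctsc* and 250 of 250 for *Ctsl* lie within it, before a transcript that starts inside the gene. The 250 bases before the start are shown for *Ctsd*, the gene called in both main comparisons, and for *Ctsz* and *Ctsk*, which were not called against control. Capitals mark CACGTG, the E-box letters (the same on both strands) to which MiT/TFE factors such as TFEB bind in many lysosomal genes. The windows are chr7:142387828-142388077 (minus strand), chr2:174439040-174439289 (minus strand) and chr3:95498960-95499209 (plus strand), each written 5′ to 3′ along the gene.
Ctsd: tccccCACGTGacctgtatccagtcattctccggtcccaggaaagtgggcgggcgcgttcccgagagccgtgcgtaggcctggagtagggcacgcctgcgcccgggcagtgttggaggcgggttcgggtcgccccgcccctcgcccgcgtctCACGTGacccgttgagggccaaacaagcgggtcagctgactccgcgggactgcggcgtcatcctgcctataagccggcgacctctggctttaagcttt
Ctsz: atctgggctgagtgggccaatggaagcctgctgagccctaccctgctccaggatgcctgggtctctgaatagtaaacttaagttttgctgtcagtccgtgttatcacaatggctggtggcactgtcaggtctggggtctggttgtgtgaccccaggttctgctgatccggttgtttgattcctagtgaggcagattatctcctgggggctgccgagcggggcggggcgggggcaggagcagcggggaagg
Ctsk: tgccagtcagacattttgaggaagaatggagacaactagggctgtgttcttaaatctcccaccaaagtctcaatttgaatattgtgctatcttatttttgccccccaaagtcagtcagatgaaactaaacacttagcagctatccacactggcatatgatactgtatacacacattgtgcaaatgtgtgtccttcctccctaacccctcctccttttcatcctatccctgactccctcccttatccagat
*Ctsd* held 2 matches, which begin 245 and 98 bases before the start, and *Ctsz* and *Ctsk* held 0. Of the windows not shown, that of *Ctsl*, inside the gene, held 1, which begins 236 bases before the start, and those of *Ctsc* and *Ctss* held 0. Over all 32851 listed windows of this length, 6.02% held at least 1 match. TGANTCA (AP-1, 6.75% of all windows) was in 0 of the 6 windows and TATAAA (12.4%) only in that of *Ctss*, both searched on both strands. These are matches of letters and not measured binding.

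*Ctsl*, a cysteine endopeptidase that many fibroblast lines secrete as a precursor, was at 6.46, 6.15 and 5.99 on the control arrays. It was at 6.74, 7.01 and 6.68 with TNFα, all above the controls, and at 6.33, 6.63 and 6.20 with TGFß1, which overlapped them. With IL-1β it was at 6.74, 6.91 and 6.54, above all controls, and with IL-6/sIL-6Rα at 6.68, 6.93 and 6.46, where the lowest array lay level with the highest control. *Ctsl* rose with TNFα by 0.61 on the log2 scale (SE 0.17, limma q = 0.036, fold-change 1.53), just past the fold threshold. Without 1 array the rise was 0.50 to 0.74, and the call held in 1 of 6 such fits, the one without control 1, with q-values of 0.025 to 0.13. Within the slides the difference was 0.46 and 0.72, and within the runs it was 0.28, 0.85 and 0.69.

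The differences of *Ctsl* were 0.53 with IL-1β (SE 0.17, q = 0.72, fold-change 1.44) and 0.49 with IL-6/sIL-6Rα (q = 1.00), close in size to that with TNFα but not called. With the run and the slide as blocks the q-values were 0.023 and 0.044, still short of the fold threshold. IL-1β and TNFα were not distinguished directly (difference -0.08, 95% interval -0.46 to 0.30). With TGFß1 the difference from control was 0.18 (95% interval -0.19 to 0.56), and it was -0.03 after quantile normalization.

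**Figure D2:**
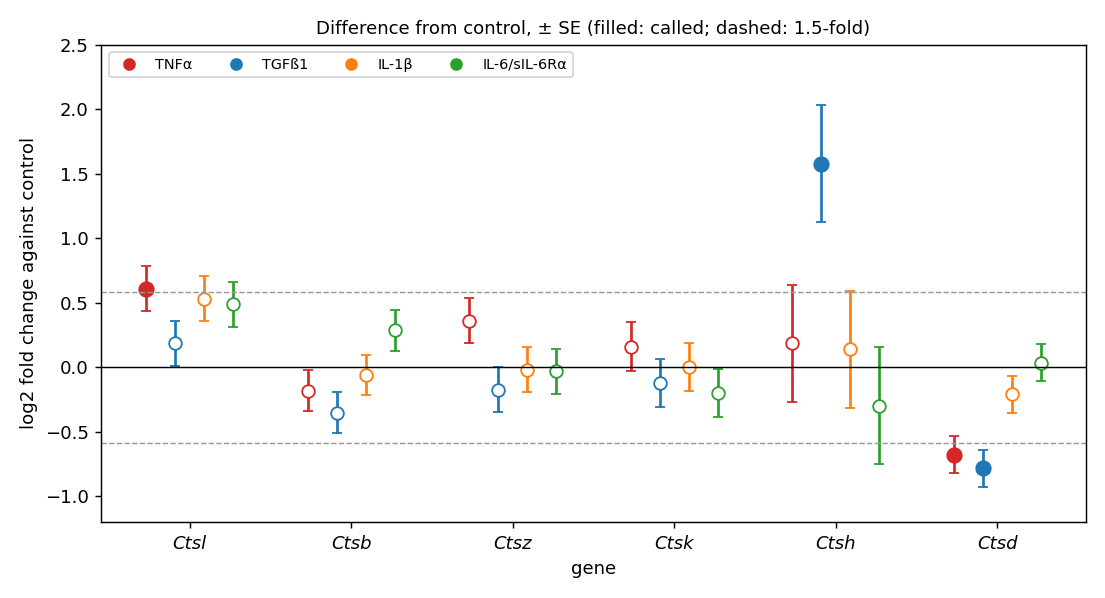
Log2 fold change against control (vertical axis) of the 6 tested cathepsins under 4 treatments, each with its SE from the fit, filled where called, with dashed lines at a fold-change of 1.5. *Ctsd* lies below the lower line with TNFα and TGFß1 only, *Ctsl* lies at 0.49 to 0.61 with TNFα, IL-1β and IL-6/sIL-6Rα, and *Ctsh* has the widest errors.

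*Ctsh*, a cysteine aminopeptidase, was dim, with levels of -3.58, -4.91 and -4.36 in controls, where the lowest level well above background lay at -5.72 to -4.99 per array. It was at -2.32, -2.66 and -3.13 with TGFß1, above all 12 other arrays. It was at -3.53, -4.29 and -4.48 with TNFα, at -3.50, -4.43 and -4.50 with IL-1β, and at -3.68, -5.25 and -4.81 with IL-6/sIL-6Rα, all overlapping the controls. The IL-6/sIL-6Rα array 8, at -5.25, was not well above background. *Ctsh* rose with TGFß1 by 1.58 on the log2 scale (SE 0.45, limma q = 0.023, fold-change 2.99).

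The size of this rise depended on the background correction and its call on single arrays. With the normexp correction, which lifts dim signals, it was 0.72 (q = 0.015). Without 1 array it was 1.27 to 1.93 with q-values of 0.013 to 0.090, and the call held in 2 of 6 such fits, those without control 1 and without TGFß1 array 12. Within the slides the difference was 1.31 and 2.18, and within the runs 1.26, 2.24 and 1.23. *Ctsh* with TGFß1 was also above IL-1β by 1.44 (q = 0.036, 17% of all probes called) and above IL-6/sIL-6Rα by 1.88 (q = 0.011). Against TNFα it was higher by 1.39 but missed the threshold (q = 0.056), and was called when the slide was a block (q = 0.045, 13.5% of all probes called), as well as with slide and run as blocks (q = 0.00042, 16.1% called). With normexp the difference of TNFα from TGFß1 was -0.63 (q = 0.042).

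*Ctsb*, a cysteine protease that trims peptides from their carboxyl end, was at 5.27, 5.54 and 5.61 in controls and at 5.13, 5.40 and 5.35 with TNFα. It was at 5.01, 5.21 and 5.15 with TGFß1, below all controls, and at 5.21, 5.71 and 5.33 with IL-1β. It was at 5.66, 6.02 and 5.61 with IL-6/sIL-6Rα, the highest group. No treatment was called against control: the differences were -0.18 with TNFα (95% interval -0.53 to 0.16), -0.35 with TGFß1 (-0.70 to -0.01, q = 0.13), -0.06 with IL-1β (-0.40 to 0.28) and 0.29 with IL-6/sIL-6Rα (-0.06 to 0.63). *Ctsb* was lower with TGFß1 than with IL-6/sIL-6Rα by 0.64 (SE 0.16, q = 0.013, fold-change 1.56).

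*Ctsz*, a cysteine carboxypeptidase, was at 3.30, 2.99 and 3.31 in controls and at 3.49, 3.41 and 3.79 with TNFα, all above the controls. It was at 2.89, 3.29 and 2.89 with TGFß1, at 3.23, 3.33 and 2.98 with IL-1β, and at 3.24, 3.39 and 2.88 with IL-6/sIL-6Rα. The difference with TNFα was 0.36 (SE 0.17, q = 0.21). *Ctsz* followed the slide: its deviation from the group mean was above 0 on 8 of 8 arrays of slide 1 and on 0 of 7 of slide 2. With the slide in the model the difference with TNFα was 0.48 (q = 0.0013), and it was 0.48 and 0.46 within the slides, short of the fold threshold. Against TGFß1, TNFα was higher by 0.53 (q = 0.058), or by 0.53 with q = 0.00031 with the slide in the model, also short of that threshold.

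*Ctsk*, a collagen-cleaving protease best known from osteoclasts, was at 1.69, 2.19 and 1.78 in controls, at 1.79, 2.27 and 2.07 with TNFα, and at 1.58, 1.99 and 1.74 with TGFß1. It was at 1.61, 2.18 and 1.86 with IL-1β and at 1.54, 1.83 and 1.69 with IL-6/sIL-6Rα. All groups overlapped the controls, with differences of 0.16, -0.12, 0.0018 and -0.20 in this order of treatments (SE 0.19 each). Its group means spanned 0.36, the narrowest range of the 6 genes.

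*Ctsc*, the dipeptidyl peptidase that activates serine proteases of leukocytes, and *Ctss*, a protease of antigen-presenting cells, were well above background on 0 of 15 arrays with any of their 3 and 1 probes. The *Ctss* probe was at -7.71 to -5.83 over the arrays. A second *Ctsl* probe was above background on 0 arrays and the remaining *Ctsh* probes on 1 and 0 arrays. The single array was IL-1β 5, where this *Ctsh* probe was at -1.91, against -7.67 to -5.98 on the other arrays. The calls of *Ctsl* and *Ctsh* thus rest on 1 probe each.

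Ranked by group mean, *Ctsd* ran from IL-6/sIL-6Rα (4.11) through control (4.07), IL-1β (3.87) and TNFα (3.40) to TGFß1 (3.29), and *Ctsb* had the same order (5.76, 5.48, 5.42, 5.29 and 5.12). *Ctsl* ran from TNFα (6.81) through IL-1β (6.73), IL-6/sIL-6Rα (6.69) and TGFß1 (6.39) to control (6.20). *Ctsh* ran from TGFß1 (-2.71) through TNFα (-4.10), IL-1β (-4.14) and control (-4.28) to IL-6/sIL-6Rα (-4.58). *Ctsz* and *Ctsk* were highest with TNFα (3.56 and 2.05), and lowest with TGFß1 (3.03) and IL-6/sIL-6Rα (1.69), respectively. Adjacent groups in these orders were not separated by the test in any of the 6 genes, with q-values of 0.056 or more, and the test separated only some groups farther apart. The called pairs were TNFα and TGFß1 from control and from IL-6/sIL-6Rα in *Ctsd*, TGFß1 from control, IL-1β and IL-6/sIL-6Rα in *Ctsh*, TGFß1 from IL-6/sIL-6Rα in *Ctsb*, and TNFα from control in *Ctsl*. The q-value also separated TGFß1 from IL-1β in *Ctsd* (-0.58, 95% interval -0.89 to -0.27, limma q = 0.012). With a fold-change of 1.49 that pair was just short of the fold threshold. No pair of groups was called in *Ctsz* or *Ctsk*. Between TNFα and TGFß1, 0 of 6 genes were called (11.8% of all probes), with limma's unadjusted p below 0.05 for 3, *Ctsh*, *Ctsl* and *Ctsz*. Between IL-1β and TNFα, 0 of 6 were called (4.83% of all probes), with an unadjusted p below 0.05 for 2, *Ctsd* and *Ctsz*. Over all 29334 tested probes this p was below 0.05 for 7990 and 5630 in these 2 comparisons.

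**Figure D3:**
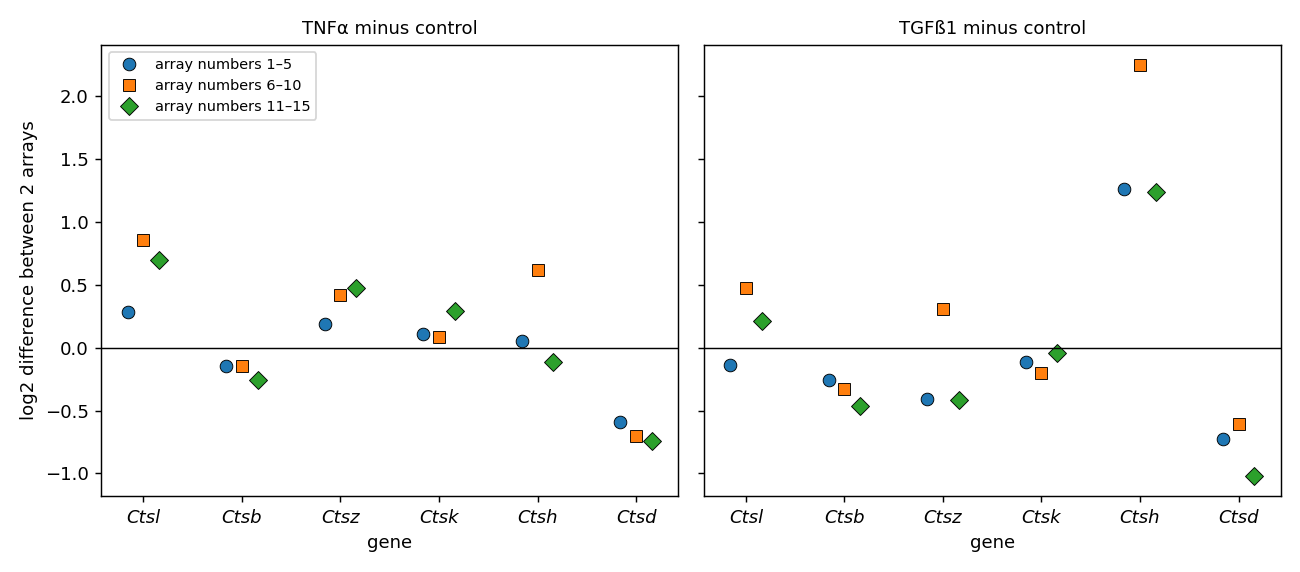
Log2 difference between the treated and the control array of the same run of 5 consecutive array numbers (vertical axis) for the 6 tested cathepsins, with 1 point for each run, TNFα on the left and TGFß1 on the right. *Ctsd* lies below 0 in all 3 runs of both panels, *Ctsl* above 0 in all 3 runs with TNFα, and *Ctsh* at 1.23 to 2.24 with TGFß1.

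Several cathepsins varied with the run of array numbers, in every group alike. *Ctsh* lay above its group mean on 5 of 5 arrays numbered 1 to 5 (median deviation 0.64) and on 0 of 5 arrays numbered 11 to 15. *Ctsb*, *Ctsd* and *Ctsk* lay above it on 5 of 5 arrays numbered 6 to 10 and on 0 of 5 arrays numbered 1 to 5. The labels do not state what the numbers mark. Each run held 1 array of every group, and with run and slide as blocks only the call of *Ctsh* between TNFα and TGFß1 changed.

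**Figure D4:**
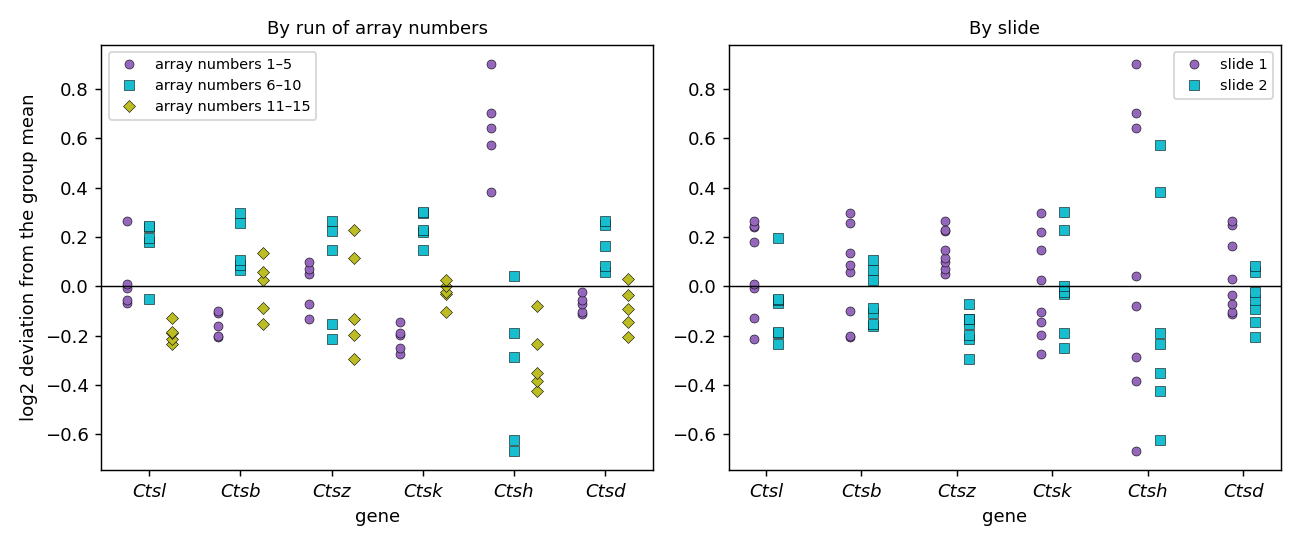
Deviation of each array from its group mean (log2, vertical axis) for the 6 tested cathepsins, by run of array numbers on the left and by slide on the right. *Ctsh* is high on all 5 arrays numbered 1 to 5, and *Ctsz* is above 0 on all 8 arrays of slide 1 and below 0 on all 7 of slide 2.

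Of 14 other cathepsin genes, 4 were tested and 10 were above background on 0 arrays. *Ctsw*, known mainly from cytotoxic lymphocytes, was at -4.62 to -3.94 on the control arrays and at 0.35 to 1.02 on the TGFß1 arrays. It rose with TGFß1 by 4.89 (SE 0.34, q = 2.59e-06), and its second tested probe rose by 5.80 (q = 0.00011). With the normexp correction the rise of the first was 3.32 (q = 1.88e-07). *Ctsa* and *Ctsf* were not called in any comparison with control. *Ctso* was above background on 0 of 3 TGFß1 arrays and 2 of 3 controls, with a measured difference of -1.35 (q = 0.065, called with the slide in the model). With TGFß1 only *Ctsw* of the 4 genes was called, where 18% of all tested probes were called. With TNFα, IL-1β and IL-6/sIL-6Rα, 0 of the 4 were called, where 10.2%, 0.252% and 0.0648% of all tested probes were. In these 3 comparisons limma's unadjusted p was below 0.05 for 0 of the 4, against 7815, 1088 and 955 of all 29334 probes.

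Of 12 listed protease inhibitors, 11 had a probe and 7 were tested, and 1 rose and 1 fell with each of TNFα and TGFß1. Over all tested probes 4.12% rose and 6.06% fell with TNFα, and 7.17% rose and 10.8% fell with TGFß1. *Cst3* (cystatin C), a secreted inhibitor, was at 5.81 to 6.30 in controls, at 5.03 to 5.71 with TNFα and at 4.77 to 5.14 with TGFß1. Neither treated group overlapped the controls. It fell with TNFα (-0.74, SE 0.22, q = 0.040) and with TGFß1 (-1.19, q = 0.0019), and both its probes were called in both comparisons. The call with TNFα held in 2 of 6 fits without 1 array, those without control 1 and without TNFα array 9.

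*Stfa3*, a stefin that acts inside cells, rose by 2.02 with TNFα (SE 0.39, q = 0.0052), from -5.27 to -4.59 in controls to -3.87 to -2.16. With the normexp correction the rise was 0.89 (q = 0.0073). With IL-1β its difference was 2.01 but was not called (q = 0.081). *Ctla2b*, which resembles the propeptide of a cathepsin, was above background on 0 of 3 controls and 3 of 3 TGFß1 arrays. On the processed signals it was at least 2.37-fold higher with TGFß1 (limma q = 0.0029). This bound sets the dim group at the larger of its own signal and the lowest signal well above background on each array. The probe passed the filter on dim probes only through the TGFß1 arrays, so its test is no separate support for a rise. Without that filter q was 0.0072. With the normexp correction the difference was 0.53 (q = 0.011), below the fold threshold, so the bound holds for the processed signals only.

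Of 10 genes for processing and sorting of lysosomal enzymes, 9 were tested. *Gnptab*, the enzyme that starts the mannose 6-phosphate tag, rose by 0.84 with TNFα (SE 0.14, q = 0.0017), from 1.94 to 2.30 in controls to 2.82 to 3.14, with both its probes called. It was the only call of this list against control, where 4.12% of all probes rose with TNFα. With TGFß1 0 of 9 were called, and limma's unadjusted p was below 0.05 for 3, against 10749 of all 29334 probes. The q-value was below 0.05 for 2 of these, *Psap* (-0.57, q = 0.0084) and *Gnptg* (-0.40, q = 0.030), both short of the fold threshold. With TNFα the same held for *Psap* (-0.54, q = 0.019) and *Nagpa* (0.52, q = 0.0075). With IL-1β the difference of *Gnptab* was 0.66 (q = 0.10), called with the slide in the model. *Lgmn* (legumain), which cleaves precursors of cysteine cathepsins, was at 3.60 to 3.82 in controls and at 3.02 to 3.39 with TNFα, with a difference of -0.45 that was not called (q = 0.13).

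Of 23 other lysosomal hydrolases, 22 were tested. With TNFα 1 rose and 4 fell (among them *Fuca1*, *Smpd1* and *Arsa*), with a median over the list of -0.29 against 0.04 over all probes. With TGFß1 0 rose and 7 fell (among them *Smpd1*, *Fuca1*, *Lipa*, *Man2b1*, *Arsb* and *Arsa*), with a median of -0.44 against 0.05. The shares of all tested probes that rose and fell were 4.12% and 6.06% with TNFα, and 7.17% and 10.8% with TGFß1. *Lipa*, the acid lipase that frees cholesterol and fatty acids, moved in opposite directions. It was at 2.03 to 2.63 in controls, at 3.45 to 3.86 with TNFα (1.37, SE 0.28, q = 0.0065) and at 1.13 to 1.72 with TGFß1 (-0.95, q = 0.025). *Smpd1*, the acid sphingomyelinase, fell by 1.08 with TGFß1 (q = 0.0016) and *Fuca1*, a fucosidase, by 0.99 (q = 0.0049). Of the falls with TNFα, the call of *Fuca1* was lost in all 6 fits without 1 array and those of *Arsa* and *Smpd1* in 4 or more of 6. With TGFß1 the call of *Lipa* was lost without control 6, TGFß1 2 or TGFß1 12 (q = 0.093 at most) and without the filter on dim probes (q = 0.057), and those of *Arsa* and *Arsb* were lost in 2 or more of 6 fits.

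Of 16 genes for the lysosomal membrane, its proton pump and its regulators, all were tested, and 3 fell with each of TNFα and TGFß1 while 0 rose. Of all tested probes 6.06% fell and 4.12% rose with TNFα, and 10.8% fell and 7.17% rose with TGFß1. The list median was -0.26 with TNFα and -0.26 with TGFß1, against 0.04 and 0.05 over all probes. *Tfeb*, a transcription factor that drives lysosomal genes through the E-box letters shown above, was at -2.70 to -2.54 in controls, at -3.81 to -3.37 with TNFα and at -3.94 to -3.52 with TGFß1. It fell by 0.96 with TNFα (SE 0.15, q = 0.0011) and by 1.05 with TGFß1 (q = 0.00035), with 2 of 3 probes called in both. With the normexp correction the falls were 0.43 and 0.43, below the fold threshold. *Mitf*, a related factor, fell by 0.97 with TGFß1 (q = 0.00067, 3 of 3 probes) and differed by -0.13 with TNFα (q = 0.64). *Tfe3*, also of this family, went the other way with TNFα, by 0.31, and was not called (q = 0.084). Whether these factors have a part in the fall of *Ctsd* was not tested.

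The pump subunit *Atp6v0a1* fell by 1.20 with TNFα (q = 0.0024) and by 1.28 with TGFß1 (q = 0.00090). Its second probe, at -0.47 and -0.39, was not called. *Atp6v0d1* fell by 0.73 with TNFα (q = 0.0061), and with TGFß1 its difference of -0.55 was short of the fold threshold (q = 0.016). With IL-1β and IL-6/sIL-6Rα, 0 of the 58 tested genes of these 5 lists were called, with limma's unadjusted p below 0.05 for 5 and 3. Over all 29334 tested probes it was below 0.05 for 1088 and 955.

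**Figure D5:**
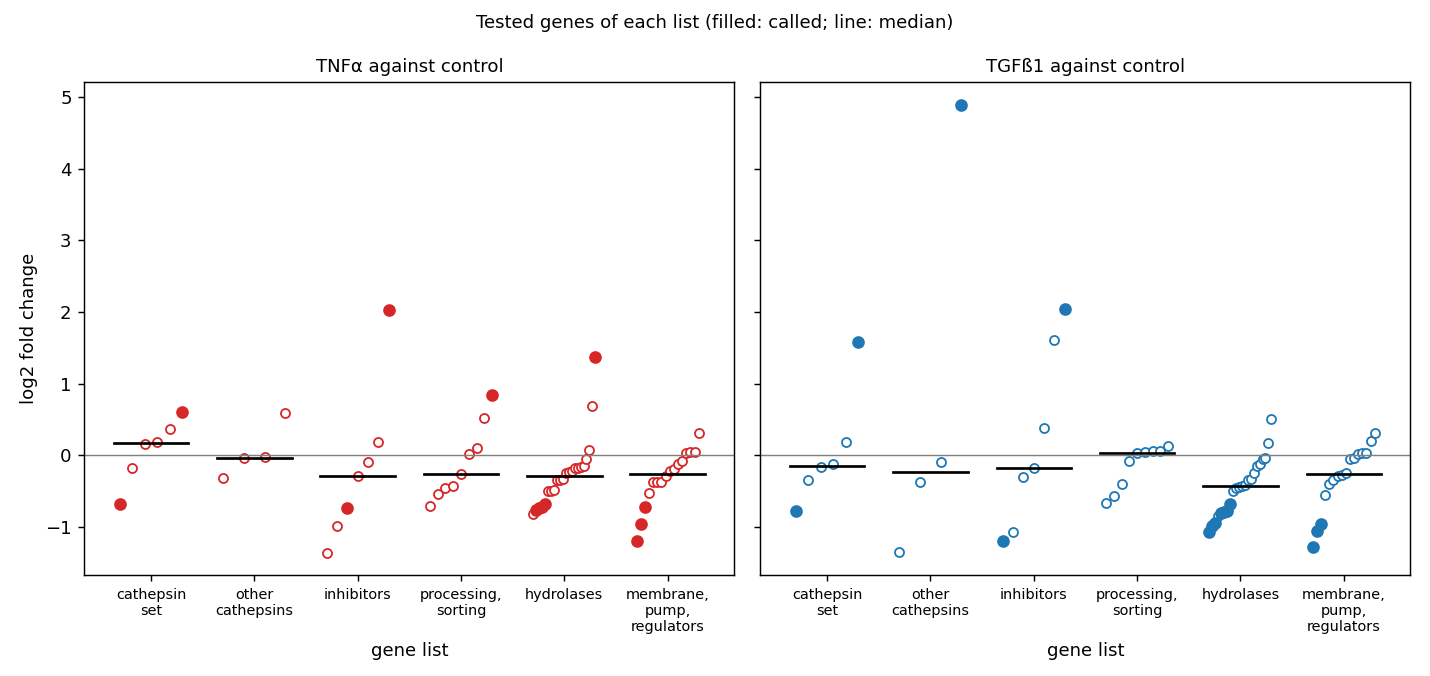
Log2 fold change against control (vertical axis) of each tested gene of the cathepsin set and of 5 lists of related genes, filled where called, with the list median as a line, TNFα on the left and TGFß1 on the right. Among hydrolases 7 of 22 are called lower with TGFß1 and 0 higher, where 10.8% of all tested probes are called lower and 7.17% higher. The point at 4.89 is *Ctsw*.

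The 2 cathepsins with the widest range of group means were *Ctsh* (1.88) and *Ctsd* (0.82). Among 13486 named genes, those whose levels followed *Ctsd* most closely over the 15 arrays included *Agtrap* (Pearson r = 0.979), *Adamts5* (0.977), *Fbxo2* (0.974) and *Selenbp2* (0.974). These 4 fell with TNFα and with TGFß1, *Adamts5*, a protease that cleaves aggrecan, with log2 fold changes of -2.81 and -3.74. Those closest to *Ctsh* were *Tmem63b* (0.952), *Pmaip1* (0.950), *Tnnt2* (0.948), *Peg12* (0.946) and *Cers3* (0.946). Of these, 4 rose with TGFß1, *Tnnt2*, a subunit of cardiac troponin, by 4.53, and *Cers3* was not called. The arrays share groups, slides and runs, so these correlations are descriptions. Because the genes were picked by their likeness on the same arrays, their shared falls or rises follow from the choice and are no separate result.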

How the data were processed

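The authors labelled RNA with Cyanine 3 and extracted spots with Agilent Feature Extraction 10.7.3.1. The deposited intensity values are processed signals, background-subtracted by that software, with no normalization between arrays. A joint table repeats these values (largest difference 0). The array was designed on an older build (mm9), so only promoter windows carry positions. Here spots with outlier marks were left out, log2 signals were averaged per probe, and the 75th percentile of all non-control spots of each array was subtracted. A probe was tested if, on all 3 arrays of some group, at least 0.5 of its spots were marked well above background. limma 3.58.1 (R 4.3.3) fitted 5 group means to 15 arrays, two-sided, with Benjamini-Hochberg q-values over 29334 probes. A gene was represented by its brightest probe. Named genes are all 8 cathepsins, the listed genes called against control (up to 3 in each direction, all given where counted), and the 5 genes most correlated with the 2 most variable cathepsins. Other genes named beside a count (*Ctsa*, *Ctsf*, *Ctso*, *Lgmn*, *Psap*, *Gnptg*, *Nagpa*, *Tfe3* and the marker genes) were chosen after their values were seen. Some genes that the rule names are not reported here. The members and lists were chosen with earlier results of these data known. The fit was tested on simulated data. The study describes 3 independent experiments. The labels do not pair arrays, but in 30 of 30 pairs of the same run of 5 numbers and different groups the deviations correlated over 0.1 once the slide was removed (0.11 to 0.67), against 2 of 60 pairs of different runs, and runs were used as a block in an alternative. The other alternatives were quantile normalization, normexp background correction (offset 50), no filter or a filter on all 15 arrays, the slide as a block, only the arrays compared, all spots kept, the q-value alone, the mean of a gene's probes, and each array left out in turn. Arrays give no counts, so their number limits the precision.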

Additional observations from a re-analysis of the deposited data

How the results depend on the processing

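The number of cathepsins called with TNFα against control was 2, and it was 1 (*Ctsd*) after quantile normalization, without the filter on dim probes, and with only the arrays compared. It was 1 to 2 without 1 array. With TGFß1 against control it was 2, and 1 without the filter and with the filter on all 15 arrays, which drops *Ctsh*, and 1 to 2 without 1 array. Between TNFα and TGFß1 it was 0, and 1 after quantile normalization (*Ctsz*) and with normexp, with the slide as a block, with the replicate block by run together with the slide, and with only the arrays compared (*Ctsh*), and 0 to 1 without 1 array (*Ctsh* without TNFα array 4, *Ctsz* without TGFß1 array 7). It stayed at 0 with IL-1β, with IL-6/sIL-6Rα and between IL-1β and TNFα in every alternative. The replicate block changed no other call among the cathepsins, while calls over all probes with TNFα went from 2986 to 4513, with IL-1β from 74 to 320, with IL-6/sIL-6Rα from 19 to 228 and between IL-1β and TNFα from 1416 to 3073. *Ctsd* was called with TNFα and TGFß1 in all 10 other settings and all 6 fits without 1 array.

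Values that changed sign were small. *Ctsl* with TGFß1 was -0.034 after quantile normalization and *Ctsz* with IL-1β was 0.0068 with normexp. Without 1 array, differences from control ranged from -0.13 to 0.54 (*Ctsh*, TNFα), -0.23 to 0.032 (*Ctsk*, TGFß1), -0.15 to 0.15 (*Ctsk*, IL-1β), -0.13 to 0.079 (*Ctsz*, IL-1β), -0.18 to 0.49 (*Ctsh*, IL-1β), -0.21 to 0.044 (*Ctsb*, IL-1β), -0.75 to 0.055 (*Ctsh*, IL-6/sIL-6Rα), -0.14 to 0.12 (*Ctsz*, IL-6/sIL-6Rα) and -0.087 to 0.11 (*Ctsd*, IL-6/sIL-6Rα). Between IL-1β and TNFα they ranged from -0.37 to 0.24 (*Ctsh*), -0.17 to 0.018 (*Ctsl*) and -0.025 to 0.23 (*Ctsb*). The calls of listed genes against control held in 220 fits and were lost in 18 under other settings, mostly without the filter and with normexp, and held in 108 and were lost in 36 without 1 array, with no change of sign. Over all probes, normexp called 3482 with TGFß1 against 5283. With 3 arrays per group, p-values rest on few cultures of 1 line.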
